A study of Mus musculus with 12 samples.

Results

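Mouse tumour cells labelled B16F10 and carrying a guide RNA against Rnf19a were compared with cells carrying a control guide, both without the IR treatment. The comparison took 6 of the 12 RNA-seq libraries of the series: 3 of untreated sgRnf19a cells and 3 of untreated control cells, whose guide the design text calls sgNC. The other 6 libraries, 3 of each guide taken 24 h into the treatment, were used only to repeat the comparison. No member was chosen by its values: all 17301 genes with enough counts in the 6 libraries were tested, of 29550 genes with a count in any library. B16F10 is an established pigment-cell tumour line of the mouse. The labels give this line for all groups, with the type tumor cells, a guide and the presence or absence of IR, and nothing on clones, pools or separate cultures. The p-values below therefore measure the spread between these libraries, which may be technical. An effect of the guide means below a difference between sgRnf19a and control libraries. The guide cannot be told apart from other differences between the cell populations that carry it.

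RNF19A is a RING-between-RING ubiquitin ligase, an enzyme that takes ubiquitin from a conjugating enzyme onto a cysteine of its own and passes it to a substrate. In human cells its reported substrates include mutant SOD1 and BARD1. The gene groups that moved most in this comparison belong to the interferon response. In that pathway type I interferon binds the receptor chains Ifnar1 and Ifnar2, the kinases Jak1 and Tyk2 phosphorylate transcription factors, among them Stat2, which join Irf9 and bind a promoter element, the interferon-stimulated response element. The products of the genes that carry it block viral RNA, sense nucleic acids and present peptides on MHC class I.

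Levels are given as CPM, the deposited count divided by the library's total after scaling with TMM factors; CPM is not adjusted for gene length, so levels are compared between libraries and not between genes. Differences are log2 fold changes, positive where sgRnf19a cells were higher, from edgeR's quasi-likelihood test over the 6 libraries; a gene is called where its Benjamini-Hochberg adjusted p over all genes tested was under 0.05. The total counts were between 62681644 and 71265107 per library. Ribosomal RNA genes took 0.408% to 0.813% of the counts, and the TMM factors were 0.991 to 1.017.

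The targeted gene was not called. Rnf19a (ENSMUSG00000022280, chr15:36239933-36283147 on the minus strand in mm10) had 31.4, 29.1 and 25.7 CPM in sgRnf19a cells, against 39.0, 34.9 and 25.2 CPM in control cells. The groups overlapped, with a log2 fold change of -0.20 (SE 0.165, adjusted p = 0.450). A guide can disrupt a reading frame without lowering the transcript, and the gene counts hold no sequence of the cut site, so this level does not check the labels. After IR the same contrast was 1.92 (adjusted p = 0.00352), that is, higher in sgRnf19a cells, with 11.6 to 37.7 CPM in sgRnf19a libraries and 4.37 to 8.06 CPM in control libraries; corrected for the length and GC content of transcripts it was 1.17 (adjusted p = 0.00467).

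Among the 17301 genes, 2825 were called (16.3%): 1280 were higher in sgRnf19a cells (7.4%) and 1545 were lower (8.93%). At least a 2-fold difference was seen in 471 of the higher and 544 of the lower genes, at least 4-fold in 242 and 222, and at least 8-fold in 117 and 115. The median log2 fold change of all genes tested was -0.012. With a correction of each library for transcript length and GC content, 2750 genes were called (15.9%), 1299 of them higher and 1451 lower. The first principal component, with 50.1% of the variance, separated the groups: sgRnf19a libraries had scores of -37.5, -68.2 and -65.4, and control libraries 54.9, 44.4 and 71.8.

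Single libraries stood apart within their groups. Against the other 2 libraries of its group, sgRnf19a library 1 had 32 genes at least 4-fold higher than both and 6 at least 4-fold lower, where the other libraries had 0 to 4 higher and 3 to 9 lower, among 10818 protein-coding genes with a mean of at least 2 CPM. In 30 of the genes that were higher in it, its level lay within 2-fold of the range of the control libraries, and none of the 30 was called. They include the cytokine genes Tnf, Cxcl2 and Ccl3, named after their values were seen. Tnf had 47.2, 0.754 and 6.88 CPM in sgRnf19a cells, against 47.9, 49.0 and 53.9 CPM in control cells. In sgRnf19a library 3 the haemoglobin genes were nearly absent: Hba-a1 had 459, 405 and 1.90 CPM in sgRnf19a cells, against 368, 406 and 396 CPM in control cells.

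The labelled cell type was checked against its markers. Of 20 melanocyte genes, Tyr, Tyrp1, Mlana, Slc45a2, Oca2 and Gpr143, which make or colour melanin or build the melanosome, had 0 counts in all 12 libraries. Dct reached at most 0.0153 CPM and Pmel at most 0.446 CPM in the untreated libraries. Of the lineage factor genes, Mitf and Pax3 were expressed and Sox10 was nearly absent. Mitf lay at 17.9 to 18.5 CPM in sgRnf19a cells and 10.8 to 15.6 CPM in control cells. Pax3 lay at 22.4 to 25 CPM in sgRnf19a cells and 18.6 to 23.7 CPM in control cells. Sox10 reached at most 0.246 CPM in the untreated libraries. Kit, Ednrb, Mc1r and Rab38 reached at most 0.4, 0.183, 0.113 and 0.193 CPM there. Gpnmb and Myo5a, which other cell types express too, lay between 50.4 and 103 CPM. The remaining members, Slc24a5 and Trpm1, were counted in every untreated library. Slc24a5 lay at 3.18 to 3.74 CPM in sgRnf19a cells and 1.71 to 2.88 CPM in control cells. Trpm1 lay at 0.893 to 0.917 CPM in sgRnf19a cells and 0.306 to 0.719 CPM in control cells. The absence of Tyr, Tyrp1 and Mlana and the near absence of Dct and Pmel go against the name of the line. That name is used here only as the label gives it. The summed level of the list was 169 to 185 CPM in sgRnf19a libraries and 149 to 182 CPM in control libraries, and 1 of 9 tested members, Rab27a, was called, as higher. Of 20 leucocyte markers, Cd3e, Cd3g, Cd8a and Ncr1 had 0 counts in all 12 libraries and none of 9 tested was called. Genes of myeloid cells were present, and Lyz2 and Cd14 did not move together. Lyz2 had 6.77, 39.4 and 42.6 CPM in sgRnf19a cells, against 3.46, 9.43 and 13.4 CPM in control cells. Cd14 had 39.0, 13 and 15.9 CPM in sgRnf19a cells, against 35.9, 37.5 and 40.7 CPM in control cells. In Cd14, Csf1r, Ptprc, Adgre1 and Tyrobp, named after their values were seen, sgRnf19a libraries 2 and 3 were below all control libraries and library 1 was not. The other tested members, Lyz2, Cd68, Itgam and Fcgr3, did not show this pattern. The leucocyte sums were 84.4 to 98.2 CPM in sgRnf19a libraries and 86.3 to 99.7 CPM in control libraries.

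The interferon-stimulated genes were the group that moved most uniformly. Of 80 such genes tested, 69 rose, 3 fell and 8 were not called. The median log2 fold change of the list was 2.03, with an interquartile range of 1.43 to 2.76, against -0.012 for all genes tested, of which 7.4% were called higher. The counts were 69 and 3 again with the length and GC correction, 66 to 69 higher and 3 to 5 lower when single libraries were left out (5 without sgRnf19a library 1), and 65 and 1 in a fit over all 12 libraries.

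In 71 members the lowest sgRnf19a library was above the highest control library, and in 3 every sgRnf19a library was below all control libraries; of all genes tested, 39.3% were without overlap in either direction. Rtp4, a chaperone that restrains viruses, had 100, 102 and 104 CPM in sgRnf19a cells, against 5.30, 4.25 and 5.56 CPM in control cells (log2 fold change 4.34, SE 0.12, adjusted p = 1.35e-06). Oas1a, which makes the oligoadenylates that activate RNase L, had 99.1, 90.7 and 102 CPM in sgRnf19a cells, against 6.99, 7.11 and 7.74 CPM in control cells (log2 fold change 3.74, SE 0.10, adjusted p = 1.35e-06). Ddx60, a helicase, had 28.3, 27.9 and 28.8 CPM in sgRnf19a cells, against 1.71, 1.55 and 1.69 CPM in control cells (log2 fold change 4.10, SE 0.12, adjusted p = 1.35e-06). In all 3 genes the libraries of a group differed by far less than the groups did. Samd9l, an antiviral growth regulator, averaged 110.0 ± 6.50 CPM in sgRnf19a cells and 9.19 ± 0.647 CPM in control cells, and Parp14, an ADP-ribosyltransferase, 143 ± 4.23 CPM in sgRnf19a cells and 20.7 ± 1.02 CPM in control cells (SD, n = 3 each). The GTPases Iigp1 and Tgtp1, which attack the vacuoles of intracellular parasites, showed the largest changes of the list, with log2 fold changes of 4.99 and 4.47. Iigp1 had 21.1, 22 and 25.8 CPM in sgRnf19a cells, against 0.483, 1.08 and 0.606 CPM in control cells. Tgtp1 and the oligoadenylate synthetase genes have close copies whose reads cannot be assigned with certainty, so the share of each copy is uncertain.

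The promoters of 4 risen genes are shown because they hold the element that the interferon-activated complex of Stat2 and Irf9 is known to bind. They are RefSeq promoters of GRCm38.p6, from 250 bases before to 50 after the start, read along the gene, with each copy of the element in capitals: chr5:120907476-120907775 on the minus strand for Oas1a, chr8:61927837-61928136 on the plus strand for Ddx60, chr11:58199306-58199605 on the plus strand for Igtp and chr3:142530086-142530385 on the plus strand for Gbp7.
Oas1a: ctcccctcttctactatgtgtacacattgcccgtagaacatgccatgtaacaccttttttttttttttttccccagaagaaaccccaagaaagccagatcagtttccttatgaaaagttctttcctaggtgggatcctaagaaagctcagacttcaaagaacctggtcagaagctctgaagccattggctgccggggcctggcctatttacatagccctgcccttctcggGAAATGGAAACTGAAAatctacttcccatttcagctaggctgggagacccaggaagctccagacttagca
Ddx60: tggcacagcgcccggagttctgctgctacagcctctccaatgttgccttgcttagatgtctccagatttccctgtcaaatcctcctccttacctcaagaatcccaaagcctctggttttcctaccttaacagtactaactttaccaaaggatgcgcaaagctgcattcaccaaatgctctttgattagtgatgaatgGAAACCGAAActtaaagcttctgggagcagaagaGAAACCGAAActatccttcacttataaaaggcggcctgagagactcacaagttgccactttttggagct
Igtp: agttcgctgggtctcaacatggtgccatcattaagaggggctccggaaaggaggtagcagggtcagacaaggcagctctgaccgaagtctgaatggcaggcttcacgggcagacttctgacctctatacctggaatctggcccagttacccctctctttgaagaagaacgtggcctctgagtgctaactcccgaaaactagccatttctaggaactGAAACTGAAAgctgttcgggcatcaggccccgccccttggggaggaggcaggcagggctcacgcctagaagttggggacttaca
Gbp7: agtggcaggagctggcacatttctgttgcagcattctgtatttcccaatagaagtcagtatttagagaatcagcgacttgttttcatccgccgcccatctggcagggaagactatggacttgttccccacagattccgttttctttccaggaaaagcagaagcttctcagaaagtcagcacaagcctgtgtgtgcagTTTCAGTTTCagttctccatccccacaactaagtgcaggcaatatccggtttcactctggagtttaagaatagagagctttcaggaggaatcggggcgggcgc
Oas1a holds 2 copies that overlap, starting 20 and 14 bases before the start site, and Ddx60 holds 2 copies 53 and 19 bases before it. Igtp holds 1 copy 34 bases before the start and Gbp7 1 copy 53 bases before it, in Gbp7 as the reverse complement. Igtp, an interferon-inducible GTPase, had 67.3, 64.5 and 71.5 CPM in sgRnf19a cells, against 10.6, 10.4 and 9.40 CPM in control cells. Gbp7, a guanylate-binding protein, had 35.0, 32.9 and 31.6 CPM in sgRnf19a cells, against 6.83, 5.82 and 6.06 CPM in control cells. Both genes were high in all sgRnf19a libraries and low in all control libraries.

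The motif searched was GAAANNGAAA, on both strands, with overlapping copies counted. Of the 69 risen interferon-stimulated genes, 51 had a promoter in the table, and 28 of these held the motif (54.9%). It was held by 4 of the 11 other members of the list (36.4%), by 67 of 949 other genes called higher (7.06%), by 32 of 1077 genes called lower (2.97%) and by 299 of 9233 genes tested and not called (3.24%). Over all 27025 genes of the promoter table the share was 3.99%. Counted by promoter and not by gene, it was 3.44% of 32851. In the first listed promoter of each risen member, 41 copies began between 222 bases before and 33 after the start, with a median of 53 before. The list was built from known interferon targets, and a match is a run of letters, not a measured binding site.

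The components of the pathway moved unevenly. The transcription factors Stat2, Irf9 and Irf7 rose. Irf7, which amplifies interferon transcription, had 105, 94.8 and 106 CPM in sgRnf19a cells, against 16.2, 14.4 and 16.3 CPM in control cells (log2 fold change 2.71, SE 0.09, adjusted p = 3.04e-06). The sgRnf19a and control libraries were far apart. Stat2 averaged 91.6 ± 2.24 CPM in sgRnf19a cells and 22.3 ± 4.15 CPM in control cells and Irf9 61.2 ± 4.52 CPM in sgRnf19a cells and 19.2 ± 4.66 CPM in control cells (SD, n = 3 each). Isg15, a ubiquitin-like protein that is joined to other proteins, had 60.2, 62.6 and 71.3 CPM in sgRnf19a cells, against 12.2, 8.88 and 10.4 CPM in control cells (log2 fold change 2.62, SE 0.14, adjusted p = 1.86e-05). Usp18, which removes it, and Uba7, which activates it, rose too, with log2 fold changes of 1.83 and 2.10.

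The ligand and its type I receptor chains were not called. Ifnb1, the gene of interferon beta, had 0.244, 0.163 and 0.454 CPM in sgRnf19a cells, against 0.274, 0.169 and 0.240 CPM in control cells (log2 fold change 0.33, SE 0.61, adjusted p = 0.750), and the groups overlapped at this low depth. The log2 fold changes were -0.17 (adjusted p = 0.186) for Ifnar1, 0.06 (adjusted p = 0.700) for Ifnar2 and -0.08 (adjusted p = 0.661) for Jak1. None of these 4 genes was called. Tyk2 rose by a log2 fold change of 0.51 (adjusted p = 0.00762), and Ifngr1, a receptor chain of interferon gamma, fell with -0.37 (adjusted p = 0.0321), a call lost without any 1 library except control library 3 (adjusted p up to 0.161).

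A few members of the list went the other way or were not called. Ifitm1, a membrane protein that blocks viral entry, fell: it had 43.3, 44.6 and 49.5 CPM in sgRnf19a cells, against 162, 108 and 173 CPM in control cells (log2 fold change -1.69, SE 0.17, adjusted p = 0.000507). Its neighbour Ifitm2 averaged 69.7 CPM in sgRnf19a cells and 112 CPM in control cells and Irf8, a transcription factor of myeloid cells, 23.2 CPM in sgRnf19a cells and 36.5 CPM in control cells, and both fell, while Ifitm3 of the same cluster rose by 0.54 (adjusted p = 0.0118), a call lost without sgRnf19a library 2 or 3 (adjusted p up to 0.0549). Irf1 was not called, with 70.8, 70.8 and 64.7 CPM in sgRnf19a cells, against 59.3, 65.2 and 59.1 CPM in control cells (log2 fold change 0.17, SE 0.08, adjusted p = 0.202). The other members without a call were Gbp5, Ifi44l, Ifit2, Slfn5, Irf2, Epsti1 and Ube2l6, with log2 fold changes between -1.21 for Ifi44l and 1.50 for Gbp5. Ifi44l and Slfn5 are among the genes that set sgRnf19a library 1 apart.

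**Figure D1:**
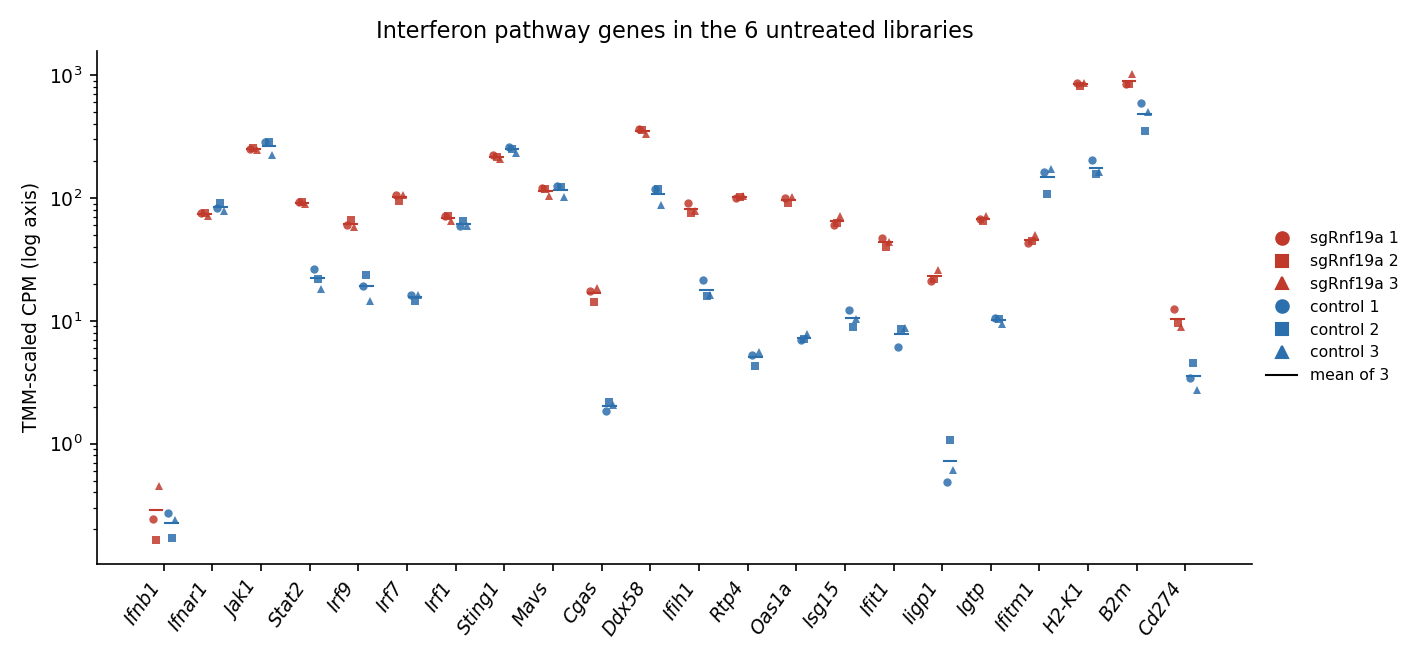
TMM-scaled CPM, on a log axis, of 22 genes of the interferon pathway in each sgRnf19a library (left, red) and each control library (right, blue), both untreated; bars are means of 3. The ligand Ifnb1, the receptor Ifnar1, Jak1, Irf1, Sting1 and Mavs overlap or nearly so, Stat2, Irf7, Irf9 and the antiviral genes separate fully, and Ifitm1 lies lower in sgRnf19a cells.

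Many sensors of foreign nucleic acid rose, and the adaptors downstream of them were not called. Of 33 genes of nucleic acid sensing tested, 13 rose and 1 fell, with a median log2 fold change of 0.136 against -0.012 for all genes tested; the fit over all 12 libraries called 8 higher and 0 lower, and the fit without sgRnf19a library 2 called 8 higher and 1 lower. Without control library 2 or 3, 2 were lower. Over all genes tested, the main fit called 7.4% higher and 8.93% lower. Cgas, the cytosolic DNA sensor that makes cyclic GMP-AMP, had 17.6, 14.2 and 18.6 CPM in sgRnf19a cells, against 1.85, 2.19 and 2.04 CPM in control cells (log2 fold change 3.05, SE 0.17, adjusted p = 2.07e-05). Zbp1, a sensor of Z-form nucleic acid, had 18.6, 16.3 and 18.3 CPM in sgRnf19a cells, against 2.32, 2.40 and 2.50 CPM in control cells (log2 fold change 2.88, SE 0.13, adjusted p = 1.01e-05). Both genes were low in every control library. Dhx58, Ifih1 and Ddx58, the RNA helicases of this family, rose with log2 fold changes of 2.84, 2.19 and 1.71. Tlr3, the endosomal receptor of double-stranded RNA, and Adar, which edits it, rose with 2.29 and 1.88. Trex1, a nuclease that removes cytosolic DNA, rose with 1.35 (adjusted p = 0.0152), a call lost without sgRnf19a library 1 or 2 (adjusted p up to 0.0686).

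The adaptors and kinases gave other values. Sting1, which receives the product of Cgas, had 225, 216 and 206 CPM in sgRnf19a cells, against 260.3, 252 and 232 CPM in control cells (log2 fold change -0.20, SE 0.08, adjusted p = 0.134). The log2 fold change was -0.03 (adjusted p = 0.878) for Mavs, the adaptor of the RNA helicases, 0.23 (adjusted p = 0.118) for the kinase Tbk1 and -0.02 (adjusted p = 0.885) for Irf3, the factor it activates. None of the 4 was called. Socs3, an inhibitor of cytokine receptors, was the member that fell, averaging 29.4 ± 4.31 CPM in sgRnf19a cells and 52.7 ± 4.86 CPM in control cells (SD, n = 3 each). Several of the risen sensors, Zbp1, Dhx58, Ifih1, Ddx58 and Adar among them, are also on the interferon-stimulated list.

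MHC class I genes and the machinery that supplies their peptides rose. Of 24 tested, 17 were called higher and none lower, with a median log2 fold change of 0.915, where 7.4% of all genes tested were called higher. Leaving out single libraries gave 15 to 17 higher and 0 or 1 lower, 1 without sgRnf19a library 1. H2-K1, a classical class I heavy chain (chr17:33996017-34000347), had 866, 822 and 865 CPM in sgRnf19a cells, against 204, 155 and 164 CPM in control cells (log2 fold change 2.29, SE 0.12, adjusted p = 1.53e-05). H2-D1, the other classical heavy chain measured, had 733, 719.7 and 802 CPM in sgRnf19a cells, against 321, 294 and 364 CPM in control cells (log2 fold change 1.20, SE 0.10, adjusted p = 0.000209). The groups did not overlap in either gene. B2m, the light chain they share, had 840.0, 847 and 1021 CPM in sgRnf19a cells, against 591, 353 and 504 CPM in control cells (log2 fold change 0.90, SE 0.18, adjusted p = 0.0131); the call was lost without sgRnf19a library 3 or control library 3 (adjusted p up to 0.0605). Heavy chain genes are near-identical in parts, so reads of H2-K1, H2-D1 and H2-Q4 may be split among copies.

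The peptide supply genes rose with them. Tap1, which carries peptides into the endoplasmic reticulum, had 103, 104 and 103 CPM in sgRnf19a cells, against 24.6, 21.1 and 17.9 CPM in control cells (log2 fold change 2.28, SE 0.12, adjusted p = 1.85e-05). Psmb8, a catalytic subunit of the immunoproteasome, had 84.7, 78.2 and 78.2 CPM in sgRnf19a cells, against 14.3, 13.9 and 15.3 CPM in control cells (log2 fold change 2.47, SE 0.09, adjusted p = 3.04e-06). In both, the lowest sgRnf19a library lay far above the highest control library. Psmb9, its partner, rose with 2.54 and Nlrc5, the transactivator of class I genes, with 1.35. The constitutive chaperones Calr, Canx and Pdia3 were not called, with log2 fold changes of 0.15, 0.17 and 0.24. Of 31 genes of the constitutive proteasome, 1 rose and 1 fell, against 2 and 11 without control library 2.

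Cytokines and genes of NF-kB did not move in 1 direction. Of 44 tested, 9 rose and 4 fell, with a median of -0.228. The share that fell was near the 8.93% of all genes tested that were called lower, where 7.4% were called higher. Cxcl10, a chemokine that draws T cells, had 18.2, 18.1 and 19.1 CPM in sgRnf19a cells, against 5.54, 7.71 and 6.89 CPM in control cells (log2 fold change 1.46, SE 0.15, adjusted p = 0.000454). Ccl5, another T-cell chemokine, had 4.14, 3.54 and 4.09 CPM in sgRnf19a cells, against 1.77, 1.63 and 1.09 CPM in control cells (log2 fold change 1.39, SE 0.25, adjusted p = 0.00853). Lif, a cytokine of the interleukin 6 family, averaged 42.9 ± 1.66 CPM in sgRnf19a cells and 18.9 ± 1.52 CPM in control cells, and Ptgs2, which makes prostaglandins, 135 ± 7.35 CPM in sgRnf19a cells and 72.4 ± 6.55 CPM in control cells (SD, n = 3 each). These 4 genes were higher in every sgRnf19a library. Il7 and Rel rose too, and Il15, Il33, Ccl2 and Tnfaip2 fell. The call of Il15 was lost without sgRnf19a library 2 (adjusted p = 0.0544), and those of Il33, Ccl2 and Tnfaip2 without sgRnf19a library 2, control library 1 and 1 to 3 others (adjusted p up to 0.166). Without sgRnf19a library 1, in which Tnf, Cxcl2 and Ccl9 lay at control levels, 7 members were called higher and 8 lower; 0 were lower without sgRnf19a library 2, 1 without control library 1 and 2 without sgRnf19a library 3.

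Of 21 ligands of immune checkpoints and natural killer receptors tested, 5 rose and 2 fell. Over all genes tested, 7.4% were called higher and 8.93% lower, the latter near the share of this list that fell. Cd274, the gene of PD-L1, had 12.6, 9.54 and 8.96 CPM in sgRnf19a cells, against 3.44, 4.57 and 2.74 CPM in control cells (log2 fold change 1.53, SE 0.23, adjusted p = 0.00379). Lgals9, a galectin that binds Tim-3, had 363, 357 and 367 CPM in sgRnf19a cells, against 93.3, 79.3 and 90.4 CPM in control cells (log2 fold change 2.05, SE 0.09, adjusted p = 7.56e-06). Neither gene overlapped between groups. Cd80, a costimulatory ligand, averaged 6.70 ± 0.812 CPM in sgRnf19a cells and 2.11 ± 0.114 CPM in control cells (SD, n = 3 each). Raet1e and Pvr also rose; the call of Pvr was lost without sgRnf19a library 1 or 2 (adjusted p up to 0.0797). Nt5e, the gene of CD73, which makes adenosine, fell: it had 8.65, 11.4 and 10.48 CPM in sgRnf19a cells, against 28.8, 32.7 and 21.5 CPM in control cells (log2 fold change -1.44, SE 0.18, adjusted p = 0.00138). Arg1, which breaks down arginine, fell to a mean of 0.407 CPM in sgRnf19a cells, against 4.88 CPM in control cells.

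**Figure D2:**
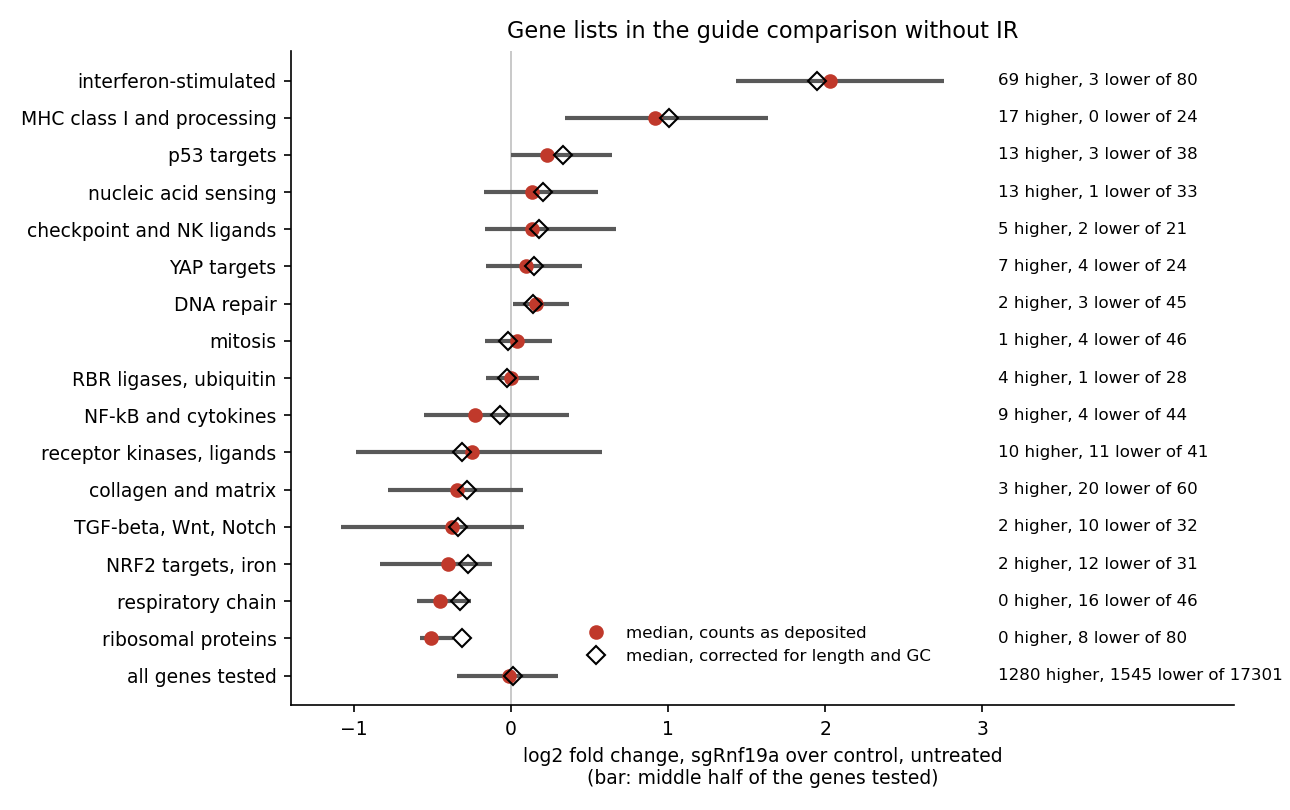
Median log2 fold change of sgRnf19a over control, untreated, for 16 gene lists and for all genes tested, from the deposited counts (red) and after correction for transcript length and GC content (diamonds); bars span the interquartile range. The interferon-stimulated list (median 2.03) and the MHC class I list (0.915) stand highest; the ribosomal protein (-0.511) and respiratory chain (-0.454) lists stand lowest.

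Genes of the extracellular matrix fell more often than they rose. Of 60 tested, 20 fell and 3 rose, with a median of -0.341; 8.93% of all genes tested were called lower. The fit over all 12 libraries called 9 lower and 3 higher, and without single libraries 12 to 22 were lower, 12 without sgRnf19a library 2 or control library 1 and 13 without sgRnf19a library 3. Col3a1, a fibrillar collagen chain (chr1:45311538-45349706), had 56.0, 25.03 and 21.6 CPM in sgRnf19a cells, against 509, 514 and 448 CPM in control cells (log2 fold change -3.84, SE 0.36, adjusted p = 0.000426). Col6a1, a chain of beaded collagen, had 34.6, 25.3 and 26.0 CPM in sgRnf19a cells, against 159, 129.7 and 145 CPM in control cells (log2 fold change -2.34, SE 0.14, adjusted p = 3.98e-05). Fn1, the gene of fibronectin, had 138, 114 and 121 CPM in sgRnf19a cells, against 364, 302 and 379 CPM in control cells (log2 fold change -1.48, SE 0.12, adjusted p = 0.000143). The groups were apart in all 3, and sgRnf19a library 1 was the highest of its group in each. Col6a2 fell by 3.67 on the log2 scale, Serpine2, an inhibitor of plasminogen activators, by 2.18, Tnc, the gene of tenascin C, by 1.87 and Plat, the tissue plasminogen activator, by 1.30. The basement membrane chains Col4a1 and Col4a2 fell by 0.67 and 0.64. The call of Col4a2 was lost without sgRnf19a library 1 or 2 or control library 1 (adjusted p up to 0.0952, and 0.0717 with the length and GC correction). The members that rose were Col8a1, Mmp10 and Ccn1.

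Several matrix genes also mark fibroblasts, so the marker list was set beside them. Of 15 fibroblast markers tested, 4 fell (Col3a1, Pdgfrb, Pdgfra and Pi16) and 1, Fap, rose, where 8.93% of all genes tested were called lower and 7.4% higher. The call of Pdgfra was lost without sgRnf19a library 3 (adjusted p = 0.0520) and that of Pi16 without sgRnf19a library 2 or 3 or control library 1 or 2 (adjusted p up to 0.151). Their summed level was 110 to 223 CPM in sgRnf19a libraries and 535 to 575 CPM in control libraries, most of it from Col3a1 in the control cells. Col1a1 had 71.8, 32.1 and 41.6 CPM in sgRnf19a cells, against 62.4, 48.7 and 79.9 CPM in control cells, and Twist2 48.9, 49.6 and 44.8 CPM in sgRnf19a cells, against 44.2, 38.8 and 38.1 CPM in control cells; neither was called. In bulk RNA, fewer cells of a type and less RNA per cell cannot be told apart, and the part of such cells in the matrix result was not tested. Of 12 endothelial markers, Flt1 rose and Eng fell among 8 tested; the sums were 53 to 59.4 CPM in sgRnf19a libraries and 22.9 to 24.6 CPM in control libraries, most of it Flt1. Among the fibroblast markers 2 fell without sgRnf19a library 3, and among the endothelial ones 2 fell without sgRnf19a library 1 or control library 2 and none without sgRnf19a library 2 or 3. The call of Eng was lost without sgRnf19a library 2 or 3 or control library 1 (adjusted p up to 0.0832).

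Receptors and their ligands moved in both directions. Of 41 receptor kinase, ligand and adaptor genes tested, 10 rose and 11 fell, where 7.4% of all genes tested were called higher and 8.93% lower. The fit over all 12 libraries called 5 higher and 6 lower, and 6 fell without sgRnf19a library 2 and 7 without control library 1. Ephb2, an ephrin receptor, had 3.59, 3.17 and 3.46 CPM in sgRnf19a cells, against 40.3, 33.7 and 39.8 CPM in control cells (log2 fold change -3.48, SE 0.13, adjusted p = 3.09e-06). Fgfr1 had 55.4, 53.8 and 57.1 CPM in sgRnf19a cells, against 124, 121 and 126 CPM in control cells (log2 fold change -1.16, SE 0.07, adjusted p = 3.81e-05), and Pdgfrb averaged 5.85 ± 0.267 CPM in sgRnf19a cells and 23.1 ± 3.08 CPM in control cells (SD, n = 3 each). Both growth factor receptors were lower in every sgRnf19a library. Flt1, a receptor of vascular endothelial growth factor, had 52.9, 52.8 and 59.8 CPM in sgRnf19a cells, against 12.1, 11.4 and 11.9 CPM in control cells (log2 fold change 2.23, SE 0.10, adjusted p = 7.31e-06). Egfr and Met, the receptors of epidermal and hepatocyte growth factor, rose: Egfr averaged 34.7 ± 1.65 CPM in sgRnf19a cells and 12.6 ± 2.17 CPM in control cells and Met 80.7 ± 0.772 CPM in sgRnf19a cells and 28.3 ± 7.11 CPM in control cells (SD, n = 3 each).

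Grb10 stood out on this list. It encodes an adaptor that binds and dampens the insulin receptor and is imprinted in the mouse. Grb10 (chr11:11930508-12037401) had 4.12, 0.695 and 0.783 CPM in sgRnf19a cells, against 383, 389 and 354 CPM in control cells (log2 fold change -7.65, SE 0.76, adjusted p = 0.00135). Of 24 imprinted genes tested, Grb10, Peg3, Phlda2 and Igf2r fell; the call of Phlda2 was lost with the length and GC correction (log2 fold change -0.46, adjusted p = 0.110). Cdkn1c, an imprinted inhibitor of cyclin-dependent kinases, rose: it had 9.49, 8.57 and 9.62 CPM in sgRnf19a cells, against 0.274, 0.616 and 0.564 CPM in control cells (log2 fold change 4.24, SE 0.31, adjusted p = 8.94e-05). The other 19 were not called. Without control library 2 or 3, 2 were called higher. The shares over all genes tested were 7.4% higher and 8.93% lower.

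In the TGF-beta, Wnt and Notch list 10 of 32 genes fell and 2 rose, against 8.93% and 7.4% of all genes tested, with 4 and 0 in the fit over all 12 libraries. Without sgRnf19a library 2, 6 fell, and 1 rose without any 1 sgRnf19a library or control library 1. Wnt7b, a Wnt ligand, had 0.305, 0.695 and 0.721 CPM in sgRnf19a cells, against 5.65, 4.51 and 4.09 CPM in control cells (log2 fold change -3.04, SE 0.36, adjusted p = 0.00108). Hes1, a target of Notch, averaged 3.82 ± 0.922 CPM in sgRnf19a cells and 9.97 ± 1.72 CPM in control cells, and Tgfbi, induced by TGF-beta, 4.85 ± 1.40 CPM in sgRnf19a cells and 15.9 ± 2.68 CPM in control cells (SD, n = 3 each). Both fell without overlap. The Notch ligands Dll1, Jag1 and Jag2 and the receptors Notch1 and Notch3 fell too, while Notch2 and Skil, a repressor of Smad signals, rose. The calls of Jag1, Notch1, Notch2 and Notch3 were lost without sgRnf19a library 2 or 3 and, except for Notch1, without control library 1 (adjusted p up to 0.166); those of Jag1, Notch1 and Notch2 were lost without sgRnf19a library 1 too, and that of Jag1 without control library 3.

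Of 28 keratin and junction genes tested, 4 rose and 8 fell, with 5 and 2 in the fit over all 12 libraries. The main fit called 7.4% of all genes tested higher and 8.93% lower. Dsp, the gene of desmoplakin, which ties keratins to desmosomes, rose most: Dsp (chr13:38151294-38198577) had 54.8, 64.5 and 54.8 CPM in sgRnf19a cells, against 0.354, 0.569 and 0.719 CPM in control cells (log2 fold change 6.71, SE 0.23, adjusted p = 3.04e-06). Krt8, a keratin of simple epithelia, had 242, 225 and 244 CPM in sgRnf19a cells, against 423, 364 and 447 CPM in control cells (log2 fold change -0.80, SE 0.10, adjusted p = 0.00128), and its partner Krt18 averaged 212 ± 4.21 CPM in sgRnf19a cells and 298 ± 24.9 CPM in control cells (SD, n = 3 each), a call lost with the length and GC correction (adjusted p = 0.124). Desmoplakin transcripts were thus higher and those of the keratin pair lower. F11r and Spint1 rose, while Jup, Ppl and Itga6 fell. The list's summed level was 1280.0 to 1330.0 CPM in sgRnf19a libraries and 1410.0 to 1650.0 CPM in control libraries. Vim, the gene of vimentin, was not called (log2 fold change -0.10, SE 0.08, adjusted p = 0.390). Of 18 intestinal lineage genes tested, 1 rose and 4 fell; 2 fell without sgRnf19a library 2 or 3 or control library 1, and 2 rose without control library 3.

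**Figure D3:**
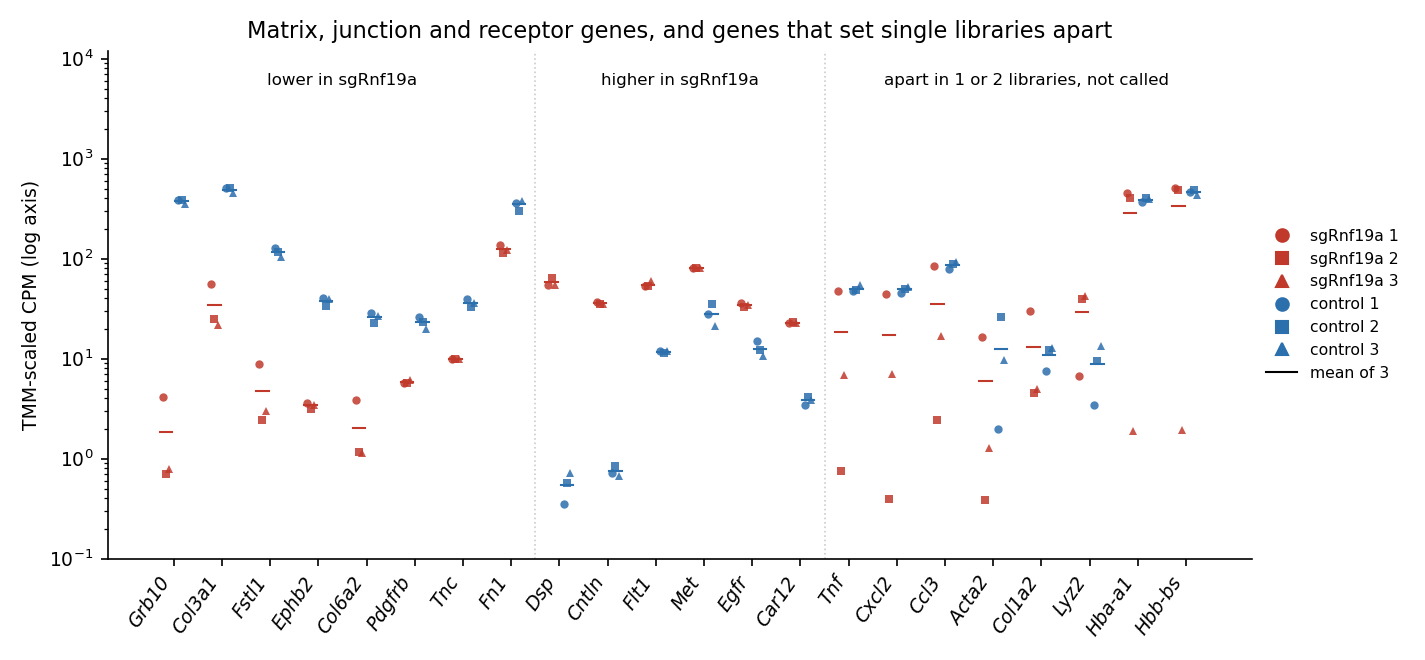
TMM-scaled CPM, on a log axis, of 22 genes in each sgRnf19a library (left, red) and each control library (right, blue), both untreated; bars are means of 3. The first 8 genes are lower in all sgRnf19a libraries and the next 6 higher; in the last 8, which were not called, 1 or more sgRnf19a libraries lie at control levels and the rest do not, or the control libraries scatter.

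The medians of the respiratory chain and ribosomal protein lists lay below that of all genes tested, and most members were not called. Of 46 genes of the respiratory chain, 16 fell and none rose, with a median of -0.454. After the length and GC correction 15 fell, with a median of -0.326. Leaving out single libraries gave 1 to 29 lower: 1 without sgRnf19a library 1 or 2 and 29 without control library 2. It gave 2 without control library 1 and 5 without sgRnf19a library 3. Of 80 ribosomal protein genes, 8 fell and none rose, with a median of -0.511, or -0.315 after the length and GC correction, a share called near the 8.93% lower of all genes tested; without single libraries 0 to 66 fell, with 0 without sgRnf19a library 2, 2 without sgRnf19a library 1 or control library 1, 5 without sgRnf19a library 3 and 66 without control library 2. Rpl8 had 848, 838 and 945 CPM in sgRnf19a cells, against 1371, 1216 and 1743 CPM in control cells (log2 fold change -0.72, SE 0.14, adjusted p = 0.0101). The call of Rpl8 was lost without sgRnf19a library 2 (adjusted p = 0.0587). The counts of both lists thus rest on single libraries, and with the genes of chromosomes 3 and 15 left out they were 10 and 4. Of 13 mitochondrially encoded protein genes, mt-Nd3 fell and none rose, with a median of 0.06, or 0.205 after the correction; without any 1 sgRnf19a library none fell, without control library 2, 2 rose, and without control library 3, 1 rose and 2 fell. Most of these transcripts are short, and short transcripts as a class were lower: the median log2 fold change was -0.445 for 375 genes under 1000 bases, of which 85.9% were below 0, and 0.136 for 1630 genes over 6000 bases. Across 10818 genes, Spearman's rho of the log2 fold change was 0.251 with transcript length and -0.298 with GC content, and 0.051 and 0.056 after the correction; genes within libraries are not independent replicates.

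Targets of Nrf2, the regulator of antioxidant genes, with iron and ferroptosis genes, fell more often than they rose. Of 31 tested, 12 were called lower and 2 higher, with a median of -0.40, or 12 and 2 with the length and GC correction. Over all genes tested, 8.93% were called lower and 7.4% higher. Akr1b8, an aldo-keto reductase, had 57.8, 60.4 and 59.2 CPM in sgRnf19a cells, against 166, 157 and 163 CPM in control cells (log2 fold change -1.46, SE 0.07, adjusted p = 1.21e-05). Nqo1, a quinone reductase, had 38.9, 36.4 and 41.9 CPM in sgRnf19a cells, against 82.6, 76.6 and 93.3 CPM in control cells (log2 fold change -1.11, SE 0.10, adjusted p = 0.000296). Gstp1, Hmox1, Me1, Fth1 and Ftl1 fell too; the call of Ftl1 was lost without any 1 sgRnf19a library or control library 1 (adjusted p up to 0.09998, and 0.0637 with the length and GC correction). The groups did not overlap for Akr1b8 or Nqo1. Those that rose were Slc7a11, the cystine importer, which averaged 80.8 ± 4.03 CPM in sgRnf19a cells and 39.6 ± 4.45 CPM in control cells, and Acsl4, which makes the lipids that ferroptosis oxidizes, with 152 ± 7.32 CPM in sgRnf19a cells and 69.1 ± 10.6 CPM in control cells (SD, n = 3 each). Nfe2l2, the gene of Nrf2 itself, was not called (log2 fold change -0.21, SE 0.10, adjusted p = 0.192).

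Of 38 p53 targets tested, 13 rose and 3 fell, against 7.4% and 8.93% of all genes tested, with a median of 0.229; the fit over all 12 libraries called 8 higher and 3 lower. Ddb2, a DNA damage sensor, rose by 1.51 on the log2 scale, the cyclin gene Ccnd2 by 0.92, the death receptor gene Eda2r by 0.93 and Mdm2, the ligase of p53, by 0.50, a call lost without sgRnf19a library 1 or 2 or control library 1 (adjusted p up to 0.0694). Tap1 and Cd80 are on this list as well. Trp53 had 391, 383 and 378 CPM in sgRnf19a cells, against 343, 389.9 and 408 CPM in control cells and Cdkn1a, the cyclin-dependent kinase inhibitor p21, 219, 204 and 222 CPM in sgRnf19a cells, against 210.3, 173 and 199.5 CPM in control cells. Neither gene was called, and both sets of libraries lay close together. Ak1, Gadd45a and Sulf2 fell. Of 49 DNA replication genes 1 rose and 3 fell, and of 46 mitosis genes 1 rose and 4 fell, where 8.93% of all genes tested were called lower. These counts moved with single libraries. Without control library 2, 7 replication and 8 mitosis genes fell; without sgRnf19a library 1 or 2, 0 and 1 fell; without sgRnf19a library 3, 1 and 2 fell. Among replication genes 2 rose without control library 2 and 0 without sgRnf19a library 2, and among mitosis genes 3 rose without control library 3, 2 without control library 2 and 0 without the other libraries in turn. Of 24 YAP targets 7 rose and 4 fell, with 3 higher without sgRnf19a library 1 or 3 or control library 1 and 4 without sgRnf19a library 2. Of 45 DNA repair genes 2 rose and 3 fell, with 0 higher without any 1 sgRnf19a library or control library 1, 6 without control library 3 and 9 without control library 2. Mki67 was 851, 989 and 746 CPM in sgRnf19a cells, against 766, 823 and 251 CPM in control cells, without a call.

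Ubiquitin genes related to the target were called about as often as all genes tested (16.3%). Of 28 RING-between-RING ligases, partners and ubiquitin genes tested, 4 rose and 1 fell, against 1 and 0 in the fit over all 12 libraries; 2 rose without sgRnf19a library 1 or 2 or control library 1, and 2 fell without control library 2. Cyld, which cleaves linear and lysine-linked ubiquitin chains, had 68.2, 71.9 and 72.2 CPM in sgRnf19a cells, against 47.2, 41.5 and 35.9 CPM in control cells (log2 fold change 0.77, SE 0.11, adjusted p = 0.00257). Rnf31, the catalytic subunit of the ligase that makes linear chains, had 24.3, 28.9 and 24.3 CPM in sgRnf19a cells, against 17.0, 15.9 and 13.2 CPM in control cells (log2 fold change 0.75, SE 0.13, adjusted p = 0.00724). Ankib1 and Arih2 rose with 0.55 and 0.29. The call of Ankib1 was lost without sgRnf19a library 1 or 2 or control library 1 (adjusted p up to 0.0727, and 0.0589 with the length and GC correction) and that of Arih2 without any 1 library except control library 2 (adjusted p up to 0.161). Sod1 fell, with 133, 128 and 130.4 CPM in sgRnf19a cells, against 190.4, 168 and 201 CPM in control cells (log2 fold change -0.51, SE 0.09, adjusted p = 0.00618). Rnf19b, the closest relative of the target, was not called (log2 fold change -0.22, SE 0.12, adjusted p = 0.257), nor were Bard1 (0.01) and Ubb (-0.05). Rps6ka1, the gene of the kinase RSK1 named in the series title, had 45.6, 42.7 and 49.2 CPM in sgRnf19a cells, against 49.9, 45.8 and 60.7 CPM in control cells (log2 fold change -0.19, SE 0.12, adjusted p = 0.325), and Rps6ka3 had a log2 fold change of 0.29 (adjusted p = 0.107).

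The largest changes were mostly in genes outside the lists. Hhat, the acyltransferase of Hedgehog proteins, had 6.55, 4.57 and 5.20 CPM in sgRnf19a cells, against 0, 0 and 0.0564 CPM in control cells (log2 fold change 7.96, SE 0.69, adjusted p = 0.000238). Mbnl3, a splicing regulator, had 20.2, 19.8 and 18.7 CPM in sgRnf19a cells, against 0.0644, 0.462 and 0.211 CPM in control cells (log2 fold change 6.30, SE 0.46, adjusted p = 9.44e-05). Cntln, a centriolar linker protein, had 37.1, 35.3 and 35.4 CPM in sgRnf19a cells, against 0.724, 0.846 and 0.677 CPM in control cells (log2 fold change 5.58, SE 0.14, adjusted p = 1.35e-06). All 3 were below 1 CPM in every control library. Itih5, Magohb, Radx, Zdhhc23, Gjc1, Ppp1r9a and Zfp354c rose by 4.21 to 5.41 on the log2 scale. Of those that fell most, Gpr149, an orphan receptor, had 0, 0 and 0.0627 CPM in sgRnf19a cells, against 8.999, 9.22 and 12.4 CPM in control cells (log2 fold change -8.84, SE 0.63, adjusted p = 8.26e-05). Tmem47, a junctional membrane protein, had 0.794, 0.370 and 0.266 CPM in sgRnf19a cells, against 35.6, 32.5 and 32.3 CPM in control cells (log2 fold change -6.13, SE 0.33, adjusted p = 2.12e-05). Fstl1, a secreted glycoprotein, had 8.80, 2.43 and 2.99 CPM in sgRnf19a cells, against 127, 116 and 105 CPM in control cells (log2 fold change -4.61, SE 0.50, adjusted p = 0.00133). The control libraries were high in every one of these. Esx1, Cd163, Tbx18, Lrp3, Slc2a10, Piezo2, Sdr39u1, Etl4, Pcdhga11, Thbd and Auts2 fell by 4.56 to 7.51 on the log2 scale. A fitted fold change of a gene near 0 in 1 group depends on the prior count.

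Genes with 0 counts in all libraries of 1 group and at least 20 in each library of the other numbered 11 with counts in sgRnf19a cells alone and 9 with counts in control cells alone. Each fold is a bound, computed against 12 counts summed over a group, taken as the worth of 3 read pairs. Zkscan7, a zinc finger gene (chr9:122885685-122898618), had 3.47, 3.45 and 3.48 CPM in sgRnf19a cells and 0 in control cells, at least 57.2-fold higher. 4930452B06Rik was at least 87.3-fold higher and Esrrb, an orphan nuclear receptor, at least 26.5-fold higher. Fabp7, a fatty acid binding protein, had 0 in sgRnf19a cells and 2.25, 1.20 and 1.79 CPM in control cells, at least 28.6-fold lower. Wdr31 was at least 13.5-fold lower. The remaining 15 genes had bounds of 6.37-fold to 23.5-fold.

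The called genes with the highest CPM changed by less than 2-fold. Pabpc1, which binds poly(A) tails, had 1391, 1380.0 and 1485 CPM in sgRnf19a cells, against 1989, 1879 and 2423 CPM in control cells, and its call was lost without sgRnf19a library 1 or 2 (adjusted p up to 0.0670). Ptma, Rpl8 and Anxa2 fell, by 0.31, 0.72 and 0.36 on the log2 scale, and Ssr3, of the translocon, and Tpm3, a tropomyosin, rose by 0.56 and 0.47. The calls of Rpl8 and Tpm3 were lost without sgRnf19a library 2 (adjusted p up to 0.0587), that of Anxa2 without any 1 sgRnf19a library or control library 1 (adjusted p up to 0.123) and that of Ptma without any 1 library except control library 3 (adjusted p up to 0.189, and 0.126 with the length and GC correction). Of these 6 genes, Pabpc1 and Rpl8 lie on chromosome 15 and Ssr3 and Tpm3 on chromosome 3.

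Chromosomes 15 and 3 stood apart in their medians. Among 10818 protein-coding genes with a mean of at least 2 CPM, 22.2% were called and the median log2 fold change was -0.014. On chromosome 15, which carries Rnf19a, 210 of 447 genes fell and 26 rose (52.8% called), with a median of -0.394. On chromosome 3, 186 of 517 genes rose and 25 fell (40.8% called), with a median of 0.281. After the length and GC correction the medians were -0.339 and 0.214. Each library showed it: against the control mean, the median gene of chromosome 15 lay at -0.337, -0.351 and -0.371 in sgRnf19a libraries and at -0.019, -0.015 and 0.031 in control libraries, and that of chromosome 3 at 0.274, 0.298 and 0.312 in sgRnf19a libraries and at 0.014, 0.005 and -0.015 in control libraries. In the libraries after IR, which share none with these, the corrected medians were -0.37 for chromosome 15 and 0.232 for chromosome 3.

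The shift was not even along chromosome 15. In stretches of 20 Mb, the median was 0.237 in the first, -0.075 in the second, which holds Rnf19a, and between -0.393 and -0.506 from 40 Mb on. On chromosome 3 the medians between 60 and 120 Mb were 0.35 to 0.472. On chromosome 2, whose median over all its genes was near 0, 36 of 64 genes between 60 and 80 Mb fell, with a median of -0.509. Several genes named above lie on chromosome 15, among them Krt8, Krt18, Wnt7b, Rpl8 and Pabpc1, and Myc, a growth regulator that fell: it had 5.41, 4.50 and 4.54 CPM in sgRnf19a cells, against 11.6, 12.6 and 12.1 CPM in control cells (log2 fold change -1.33, SE 0.14, adjusted p = 0.000625). With the genes of both chromosomes left out before scaling, an alternative added after the data were seen, 1027 genes were called higher and 1192 lower. No DNA was measured, so copies of a chromosome and its expression cannot be told apart here.

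**Figure D4:**
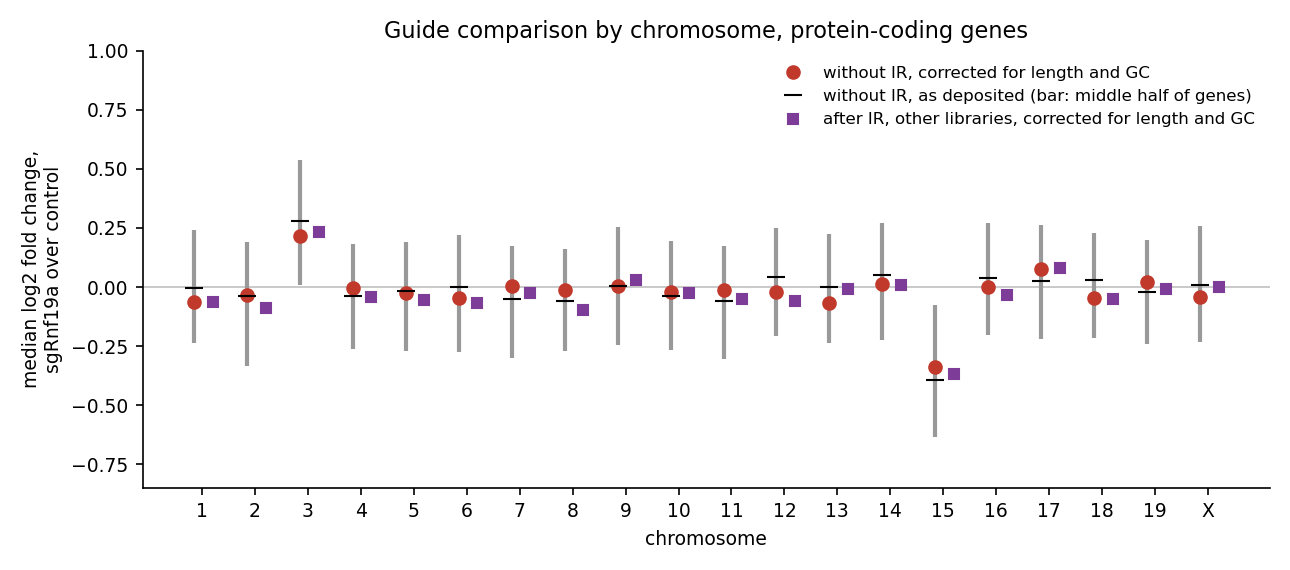
Median log2 fold change of sgRnf19a over control per chromosome, for 10818 protein-coding genes with a mean of at least 2 CPM: without IR after correction for length and GC content (red), without IR from the deposited counts (dash, with a bar for the interquartile range) and after IR, in other libraries (squares, corrected). Among the autosomes and the X chromosome, chromosome 15 (-0.339 corrected) lies lowest and chromosome 3 (0.214 corrected) highest, in untreated and in treated libraries.

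The comparison was repeated in the 6 libraries taken after IR, which share no library with it. The labels do not say whether their cells came from the same populations as the untreated ones. The repeat therefore cannot tell the guide apart from a difference between populations. Their columns in the count table bear a D and numbers other than those of the labels. They were placed in the IR groups because no other group of the labels is left. These libraries also held more ribosomal RNA, 11.4% to 22.2% of the counts, and were fitted with the untreated ones. Their length profile differed too. The median log2 level of genes over 6000 bases minus that under 1000 was 0.852 to 1.87 in untreated libraries. After IR it was -1.59 to 0.297 in sgRnf19a libraries and -1.96 to -1.64 in control libraries. After IR 6140 of 18183 genes were called (33.8%), or 5408 with the length and GC correction (29.7%). Of 2819 genes called without IR and fitted in both, 2531 (89.8%) had the same sign after IR; 1923 were also called there, and 52 were called with the opposite sign. Among all 17172 genes in both fits the share with the same sign was 70.6%. Over the 2819 genes Pearson's r between the log2 fold changes was 0.80 and Spearman's rho 0.842. These genes were picked for being called in 1 direction or the other, which raises both values. Over all 17172 genes r was 0.484 and rho 0.528. Within the genes called higher they were 0.664 and 0.583, and within those called lower 0.605 and 0.533. All are a description, since the genes share libraries and 1 estimate of spread.

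Of 458 genes called by at least 4-fold without IR, 435 (95.0%) had the same sign after IR. The interferon-stimulated list had 74 higher and 3 lower after IR, with a median log2 fold change of 3.22. Without IR it had 69 and 3, with a median of 2.03. With the length and GC correction the medians were 2.90 after IR and 1.95 without it. For Rtp4 and Oas1a the log2 fold changes after IR were 3.55 and 4.02, and for Grb10, Col3a1 and Dsp -5.64, -2.73 and 4.66. Each had the sign it had without IR. Vcan and Tgfbi, both lower without IR, were not called after it, with 0.83 and -0.07.

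Whether the difference between sgRnf19a and control libraries changed with IR was tested directly. Of 18183 genes, 124 were called (0.682%), or 493 with the length and GC correction (2.71%). This count rests on single libraries: leaving out each of the 12 in turn gave 5 to 2624, 2624 without the sgRnf19a library after IR numbered 3 and 5 without the control library after IR numbered 5. The values without IR are from the 6-library fit and the differences from the 12-library fit, so they need not subtract exactly. Cgas had a log2 fold change of 5.53 after IR, against 3.05 without it (difference 2.44, adjusted p = 0.0318). Irf1 had 1.31 after IR, against 0.17 without it (difference 1.10, adjusted p = 0.0255). Casp12, a caspase of the endoplasmic reticulum, had 1.90 after IR, against -1.34 without it (difference 3.21, adjusted p = 0.0255). The difference between sgRnf19a and control libraries was thus larger after IR for Cgas and Irf1, and had the other sign for Casp12.

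**Figure D5:**
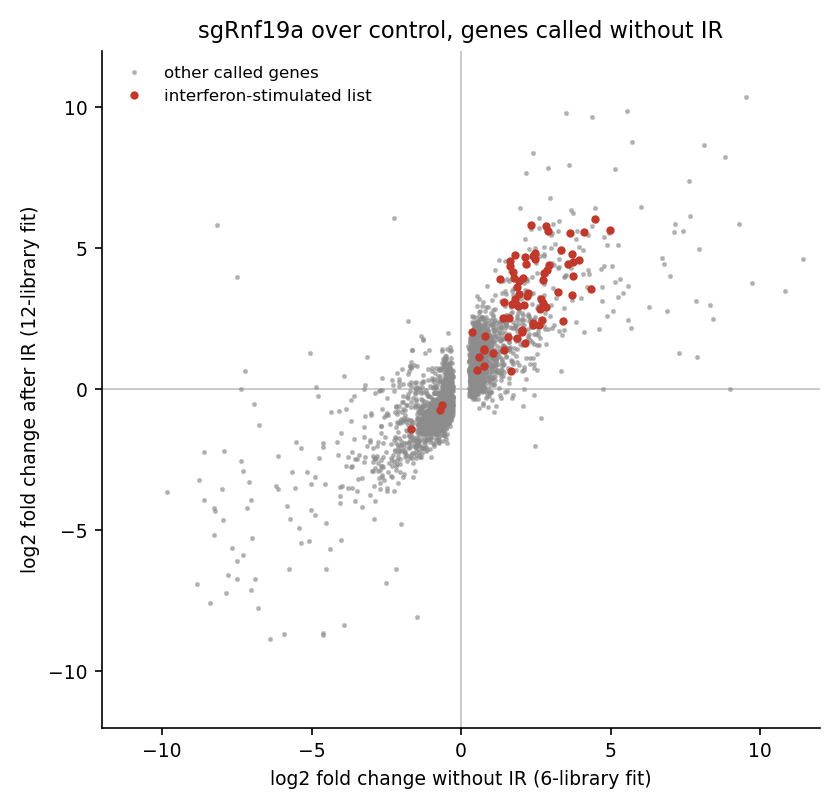
Log2 fold change of sgRnf19a over control after IR (vertical, 12-library fit) against that without IR (horizontal, 6-library fit) for 2819 genes called without IR; interferon-stimulated genes in red. Most points, 2531, lie in the 2 quadrants of equal sign, and the interferon-stimulated genes lie at the upper right apart from 3.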

How the data were processed

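RNA was taken from cell pellets; per the labels' protocols, ribosomal RNA was depleted, libraries were made with a directional NEB kit and 12 PCR cycles, and pairs of 37-base reads were sequenced on an Illumina NextSeq 500. The submitters' processing notes name the tools Bowtie2, HTSeq and DESeq2, and mm10 beside GRCm39 as builds. Their versions and the strand setting of the counting were not given in the sources used here; a gene overlapped by another on the opposite strand is therefore uncertain. Counts per gene, without normalization, and FPKM values of the same genes were deposited by the authors. The deposited counts are whole numbers whose low values pile up at 4 (6308 values, against 2726 at 3 and 1926 at 5), so they were treated as estimated counts, with 1 read pair worth about 4. Values of 1 (5221) and 2 (4653) were common too, and 31.2% of the values from 1 to 40 were multiples of 4. The worth of 4 counts per read pair is therefore an assumption. The bounds for genes counted in 1 group alone rest on it. The main fit took the deposited values as they stood. An alternative that divided them by 4 called 1480 genes higher and 1612 lower. In the FPKM table, 12 per-sample columns of counts were left aside. That table gave gene names and coordinates; of its IDs, 29456 are in GENCODE M21, 25765 of them at the same position.

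The main test was edgeR 4.0.16 in R 4.3.3 over the 6 untreated libraries (filterByExpr with a minimum count of 10 and a total of 15, TMM, robust quasi-likelihood fit, 2-sided), and over all 12 libraries for the effect after IR and the difference. Alternatives used DESeq2 1.42.0, and limma 3.58.1 on log2(FPKM + 1) or log2(FPKM + 0.1), keeping genes whose mean was 0.5 FPKM or more. The length and GC correction fitted splines of 5 degrees of freedom per library. The script was tested on simulated counts. Replicates differed by 7.28 to 55.3 chi-square units per degree of freedom, so none is a copy of another. Intervals of depth cover counting error only.

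Named genes are Rnf19a, the 15 largest called changes in each direction and the 6 highest levels among genes with a mean of at least 2 CPM and no overlap, up to 4 called members per list with the smallest p, genes with counts in 1 group alone, and a fixed set: 198 in all. Other genes named are list members or were chosen after their values were seen. The members and lists were chosen with earlier results of these data known. Levels of single genes of the intestinal list and of some others are not reported here. Promoters are from RefSeq; the 4 shown have a start that is also read in a GENCODE transcript. Figures were drawn with matplotlib 3.10.9.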

Additional observations from a re-analysis of the deposited data

Results flagged for a closer look

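For 13 named genes the effect of the guide differed between treated and untreated cells by the interaction term of the 12-library fit, with Benjamini-Hochberg adjustment over 18183 genes. Each difference is the log2 fold change of sgRnf19a over control after IR minus that without IR. Of these genes 12 are given here; the other is on the intestinal list, whose genes are not reported singly, and its effect was called without IR and not after it. With groups of 3, single libraries were not tested for being outliers. Over all genes, leaving out single libraries gave 5 to 2624 such calls. There were 5 without the control library after IR numbered 5, so most of these 13 genes lost the call there. Without untreated sgRnf19a library 2 there were 10, and without untreated sgRnf19a library 3 there were 11. The differences below thus rest on single libraries.

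The difference was positive for Cgas (2.44, adjusted p = 0.0318), Cd274 (2.34, adjusted p = 0.0318), Nlrc5 (1.75, adjusted p = 0.0255), Zbp1 (1.29, adjusted p = 0.0154), F11r (1.21, adjusted p = 0.0255) and Irf1 (1.10, adjusted p = 0.0255). In these 6 genes the effect was positive after IR and without it, and larger after IR: 3.91 after IR against 1.53 without it for Cd274, 3.14 against 1.35 for Nlrc5, 4.21 against 2.88 for Zbp1 and 2.32 against 1.07 for F11r. For Irf1 the effect without IR was not called.

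Casp12 changed sign: the effect was 1.90 after IR and -1.34 without it (difference 3.21, adjusted p = 0.0255). Etl4, Tmem47 and Plat fell in both, by less after IR: -2.07 after IR against -5.35 for Etl4 (difference 3.23, adjusted p = 0.0318), -2.37 against -6.13 for Tmem47 (difference 3.72, adjusted p = 0.0319) and -0.38 against -1.30 for Plat (difference 0.88, adjusted p = 0.0354). The call for Plat was lost with the length and GC correction (adjusted p = 0.298). Dsp and Zkscan7 rose in both, by less after IR: 4.66 after IR against 6.71 for Dsp (difference -2.10, adjusted p = 0.0496) and 3.48 against 10.83 for Zkscan7 (difference -6.92, adjusted p = 0.0318), whose untreated control libraries are all at 0, so that its fitted values depend on the prior count. Ribosomal RNA took 11.4% to 22.2% of the counts after IR and 0.408% to 0.813% without it; its part in these differences was not tested.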

How the results depend on the processing

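Rnf19a was not called under any of the alternatives run. Counts of genes called higher and lower, 1280 and 1545 as reported, moved by over 1.5 times in these cases: 1927 higher with DESeq2; 549 higher and 582 lower in the fit over all 12 libraries; 471 and 544 with a log2 fold change of at least 1; 764 and 776 with limma on log2(FPKM + 1) and no filter. The cause of the larger DESeq2 count was not tested. Leaving out single libraries gave 628 to 1746 higher and 725 to 2051 lower, fewest without sgRnf19a library 2 and most without control library 2. The share of called genes that were higher kept within 41.5% to 49.6%, against 45.3% as reported. No gene called in the main fit was called in the opposite direction under any of the 22 alternatives; 2277 of the 2825 remained called with the length and GC correction and 1122 in the fit over all 12 libraries. Of 185 called genes among the 198 named, 103 kept their call throughout.

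Of the genes named in the report as risen or fallen, these lost their call in the fit over all 12 libraries, with adjusted p from 0.0513 for Casp12 to 0.495 for Tnfaip2: Acsl4, Ankib1, Anxa2, Arih2, Casp12, Ccl2, Cd80, Col4a1, Col4a2, Cyld, Eng, Fap, Ftl1, Ifitm2, Ifngr1, Il33, Irf8, Jag1, Jag2, Jup, Krt18, Krt8, Mdm2, Met, Notch1, Notch2, Notch3, Phlda2, Pi16, Ptgs2, Ptma, Rel, Rpl8, Skil, Slc7a11, Socs3, Sod1, Ssr3, Tnfaip2, Trex1, Tyk2 and Vcan. Ankib1, Col4a2, Ftl1, Krt18, Notch1, Phlda2, Ptma and Tnfaip2 lost it with the length and GC correction, with adjusted p from 0.0589 for Ankib1 to 0.126 for Ptma.

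Genes called after IR, 6140 as reported, numbered 3877 to 7612 without single libraries. The difference between the guide effects, 124 genes, numbered 493 with the length and GC correction and 5 to 2624 without single libraries. Gene by gene, same-numbered libraries of the 2 guides did not deviate together (r of -0.154, 0.00484 and 0.0381), so the main fit did not pair them. Their ribosomal RNA shares did go with the numbers. Libraries 1 to 3 had 0.424%, 0.657% and 0.803% in sgRnf19a cells and 0.408%, 0.593% and 0.813% in control cells. Mitochondrially encoded shares were highest in library 2 and lowest in library 3 of both guides. Whether same-numbered libraries were prepared together was not tested. The replicate block gave 1457 higher and 1805 lower, and 1518 and 1778 with the length and GC correction. No paired fit was run for the treated libraries, because their columns carry other numbers than the labels. For the genes with a few counts, 1 read pair was taken as worth about 4 counts, which would limit the depth.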
